A study of Mus musculus with 6 samples.

Results

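The 6 functional joining genes of the second TRBJ cluster, TRBJ2-1, TRBJ2-2, TRBJ2-3, TRBJ2-4, TRBJ2-5 and TRBJ2-7, were followed through the β chain repertoires of the T cell receptor (TCR-β) in treated tumors, distant tumors and spleens. Members were all table entries assigned to one of these genes whose complementarity-determining region 3 (CDR3) carried no stop or frame mark. Entries of a library with the same CDR3 residues, V gene and J gene are 1 clonotype. The rule took 134862 of 198807 clonotype entries (127001 of 187625 distinct clonotypes), 328833 of 496196 reads and 6 of 12 TRBJ genes.

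All groups were C57BL/6 mice with MO4 tumors in both hindlimbs. MO4 is a B16F10 melanoma line that expresses ovalbumin. The treated tumor was the right one, beside which interferon-α-producing myeloid cells of iPS cell origin (IFN-α-iPSC-pMC) were injected 5 times between days 5 and 13. The distant tumor was the left one of the same mice and received no cells, and the spleen is the third tissue. Tumor RNA was taken on day 14, and tumors without any injected cells were not analysed here. Each tissue has 2 libraries, numbered 1 and 2, and the series names 2 mice. The labels do not say which number stands for which mouse, and both tumors grew in the same animals, so they are not independent samples. The files hold TCR-β sequences alone, so the tissue labels could not be checked against marker genes. In such bulk RNA, more T cells and more receptor RNA per T cell cannot be told apart.

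A β chain gene is assembled in the thymus when a D segment joins a J segment and a V segment then joins that DJ unit. The mouse locus holds a pair of DJ clusters in tandem, each with its own D segment, J segments and constant gene. TRBD1, which lies before both clusters, can join J segments of either, whereas TRBD2 lies behind the first cluster and normally joins J segments of the second. The J segment encodes the end of the CDR3, the loop that contacts the peptide in its MHC molecule, and the FGXG motif that follows it.

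The segments are shown because they fix where a CDR3 ends and how many residues each gene can give it. Bases run 5′ to 3′ on the plus strand of chromosome 6 (GENCODE M21, GRCm38). Capitals in the TRBJ segments mark the FGXG codons, and the CDR3 ends with the first of these codons. The D segments are in capitals throughout.
TRBD1: GGGACAGGGGGC
TRBD2: GGGACTGGGGGGGC
TRBJ2-1: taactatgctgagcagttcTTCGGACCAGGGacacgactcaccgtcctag
TRBJ2-2: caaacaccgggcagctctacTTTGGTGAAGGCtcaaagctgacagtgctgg
TRBJ2-3: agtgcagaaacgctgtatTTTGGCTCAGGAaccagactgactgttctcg
TRBJ2-4: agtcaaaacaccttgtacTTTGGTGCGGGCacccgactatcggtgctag
TRBJ2-5: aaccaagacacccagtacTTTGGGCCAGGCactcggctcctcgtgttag
TRBJ2-6: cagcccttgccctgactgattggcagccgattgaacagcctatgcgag
TRBJ2-7: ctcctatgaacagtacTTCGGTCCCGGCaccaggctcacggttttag

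TRBD2 lies at chr6:41542163-41542176. TRBJ2-1 is the J segment nearest to it, at chr6:41542754-41542803 with 577 bases between them, and TRBJ2-7 is the farthest, at chr6:41543810-41543856 with 1633 bases between them. Each of the 6 functional segments gives up to 7 residues to the CDR3, except TRBJ2-7, which gives 6. TRBJ2-6 is annotated as a pseudogene, has no FGXG codons and was assigned to 0 clonotypes. All 12 TRBJ and 23 TRBV symbols of the files matched the annotation. Genes were assigned by the authors against a reference not given in the sources used here. Close relatives such as the TRBV13 genes, or TRBV12-1 and TRBV12-2, could trade reads in that step, so their values are less certain.

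The libraries held 42320 to 135599 productive reads, those without a stop or frame mark. Intervals of counts cover counting error only, because reads amplified without molecular identifiers are not independent molecules. The 95% Wilson interval of the cluster's share was widest in distant tumor 2, from 67.7% to 68.5%.

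The TRBJ2 cluster supplied most of the repertoire in every library. By reads its share was 66.1% and 71.4% in treated tumors 1 and 2, 56.1% and 68.1% in distant tumors 1 and 2, and 68.1% and 68.6% in spleens 1 and 2. Distant tumor 1 was the low library, and the other 5 lay between 66.1% and 71.4%. In distant tumor 1 a TRBJ1-2 clonotype, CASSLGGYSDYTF, made up 42.1% of the TRBJ1 reads. With each clonotype counted once the cluster held 67.4% and 68.8% in treated tumors, 62.5% and 67.0% in distant tumors, and 67.9% and 68.5% in spleens.

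By reads the cluster averaged 68.8% ± 3.73 in treated tumors and 62.1% ± 8.50 in distant tumors (SD, n = 2 each). The difference of 6.69 percentage points was within the spread between libraries (exact permutation p = 0.667, two-sided, n = 2 each), and 0.333 is the smallest p such a test can give. Over all 4 tumors the mean was 65.4% ± 6.61 (SD, n = 4), against 68.3% ± 0.359 (SD, n = 2) in spleens (exact permutation p = 0.733, two-sided). The smallest p this comparison can give is 0.0667. Once each library's 10 most abundant clonotypes were left out, the difference between treated and distant tumors was 2.16 percentage points. Without distant tumor 1 the difference between tumors and spleens was 0.240 percentage points in the opposite direction.

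TRBJ2-7, the segment farthest from TRBD2, was the most used gene of the cluster in all 6 libraries. It took 20.4% and 20.6% of reads in treated tumors, 18.1% and 22.6% in distant tumors, and 19.3% and 19.9% in spleens. Its tumor libraries lay on both sides of the spleens. TRBJ2-2 was the least used gene in 5 of 6 libraries, with 7.23% and 3.68% of reads in treated tumors, 3.20% and 5.56% in distant tumors, and 5.31% and 5.60% in spleens. The exception was treated tumor 1, where TRBJ2-4 was lower at 6.76%.

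The other 4 genes lay between these, and their order changed from library to library. TRBJ2-5 took 11.5% and 11.6% of reads in treated tumors, 7.02% and 11.7% in distant tumors, and 13.1% and 12.9% in spleens. Every tumor was below both spleens for this gene, and distant tumor 1 was lowest. TRBJ2-4 likewise lay below both spleens in every tumor, with 6.76% and 8.86% in treated tumors, 4.96% and 8.43% in distant tumors, and 10.04% and 9.43% in spleens. For TRBJ2-1 the shares were 10.2% and 13.5% in treated tumors, 14.4% and 9.57% in distant tumors, and 10.7% and 10.8% in spleens. TRBJ2-3 had 9.95% and 13.2% of reads in treated tumors, 8.47% and 10.2% in distant tumors, and 9.60% and 9.98% in spleens. For these last genes the tumors spanned the spleens.

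**Figure D1:**
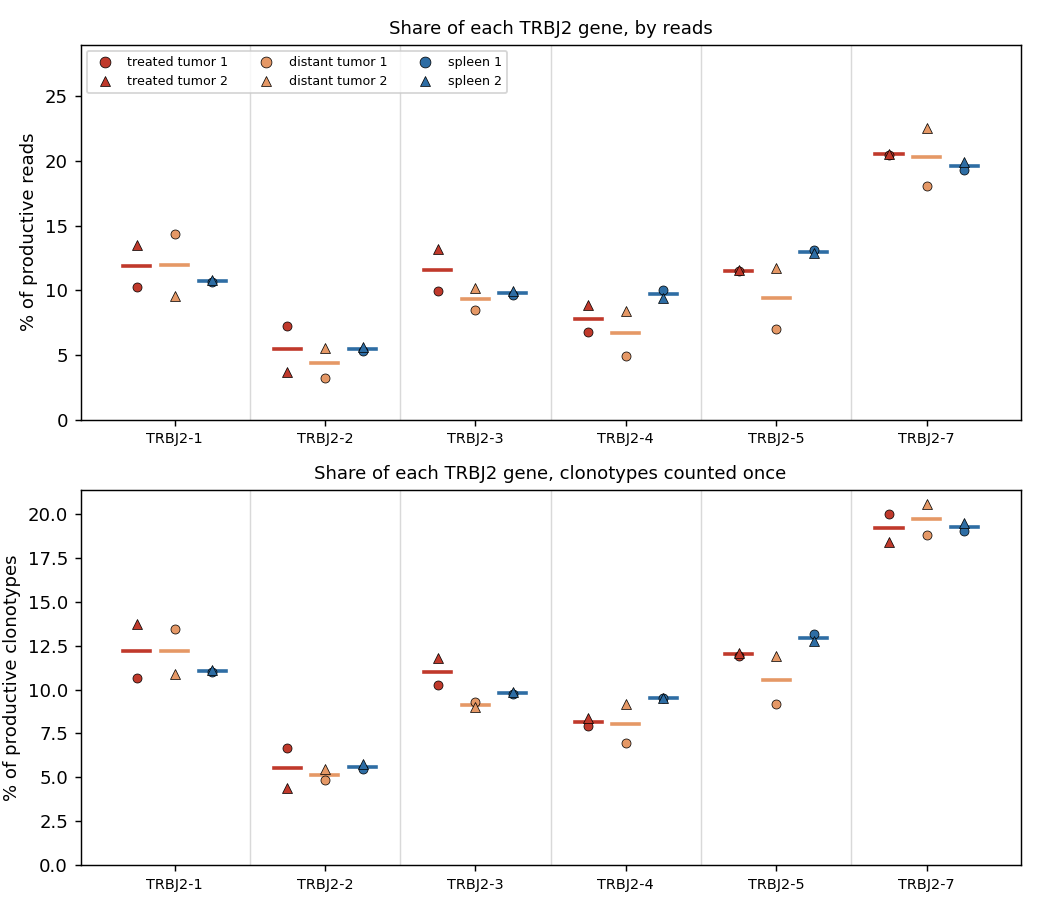
Share of each TRBJ2 gene in the productive reads (top) and productive clonotypes (bottom) of each library, in percent. Points are single libraries (circle for number 1, triangle for number 2) and short lines are means of 2 libraries. TRBJ2-7 lies highest in every library, at 18.1% to 22.6% of reads, and the spleens lie close together where the tumors scatter.

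No TRBJ2 gene was called in reads between treated and distant tumors or between tumors and spleens. The test was edgeR's quasi-likelihood test over 12 TRBJ genes, and with 2 libraries a group it cannot show a lack of change. Between treated and distant tumors 0 of 6 TRBJ2 genes passed an adjusted p of 0.05, where the background over all TRBJ genes was 8.33% called (1 of 12). The called gene was TRBJ1-2, lower in treated tumors (log2 fold change -1.67, SE 0.51, edgeR adjusted p = 0.029). DESeq2 also called 0 of 6 TRBJ2 genes and 8.33% of all 12. Between tumors and spleens edgeR called 0 of 6 TRBJ2 genes and 0% of all TRBJ genes. There 1 of 12 genes, none of them a TRBJ2 gene, was under an unadjusted p of 0.05, and DESeq2 called 0.

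Over the 6 TRBJ2 genes the median log2 fold change was 0.26 for treated over distant tumors and -0.05 for tumors over spleens, beside 0.26 and -0.15 over all 12 TRBJ genes.

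The precision of these values differed between genes. For TRBJ2-7 the log2 fold change of treated over distant tumors was 0.01, with a 95% interval from -0.30 to 0.33, and that of tumors over spleens was 0.06, from -0.21 to 0.33. For TRBJ2-2, the gene with the fewest reads, the intervals ran from -0.90 to 1.53 and from -1.20 to 0.89. The fold changes of the other TRBJ2 genes lay between -0.01 and 0.31 for treated over distant tumors. For tumors over spleens the lowest was that of TRBJ2-4, at -0.43 (SE 0.44, edgeR adjusted p = 0.81). TRBJ2-5 was at -0.32 (SE 0.31, edgeR adjusted p = 0.81) in the same comparison.

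A single library decided some of these calls. Without distant tumor 1, TRBJ2-7 was called lower in treated than in distant tumors (log2 fold change -0.14, edgeR adjusted p = 0.049) and higher in tumors than in spleens (edgeR adjusted p = 0.019). Without distant tumor 2, TRBJ2-5 and TRBJ2-7 were called higher in treated tumors (log2 fold changes 0.72 and 0.18, edgeR adjusted p = 0.0074 and 0.0058), and TRBJ2-5 was called lower in tumors than in spleens at -0.53 (edgeR adjusted p = 0.018). Between treated and distant tumors the sign of TRBJ2-7 thus turned with the library left out. With TMM scaling, which moved the median of all TRBJ genes by -0.26 in this comparison, TRBJ2-7 was called lower in treated tumors (log2 fold change -0.25, edgeR adjusted p = 0.016). With clonotypes counted once edgeR called 0 of 6 TRBJ2 genes in both comparisons, beside 0% of all TRBJ genes for treated against distant tumors and 16.7% for tumors against spleens.

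In spleens TRBV13-2 was the leading V partner of each of the 6 TRBJ2 genes by reads, in both libraries. It held 12.5% and 9.56% of TRBJ2-2 reads in spleens 1 and 2, and 16.7% and 13.2% of TRBJ2-4 reads. The effective number of V partners, the inverse of the summed squared V shares, lay between 13.7 and 16.5 for every TRBJ2 gene by reads in the spleens.

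Over the whole cluster tumors had fewer effective V partners, and which V gene led differed between libraries. For the whole cluster the effective number by reads was 14.1 and 11.4 in treated tumors, 10.9 and 11.8 in distant tumors, and 14.97 and 16.3 in spleens. All 4 tumors were below both spleens, with a mean difference of -3.58 (exact permutation p = 0.0667, the smallest possible, two-sided, n = 4 and n = 2). The lowest values of single genes were 2.77 for TRBJ2-2 in distant tumor 2, where TRBV5 held 58.9% of its reads, and 3.66 for TRBJ2-1 in distant tumor 1, where TRBV29 held 49.3%. With clonotypes counted once the numbers for the cluster were 15.1 and 13.5 in treated tumors and 14.4 and 15.3 in distant tumors. Spleens then had 15.7 and 16.6, and tumors differed from them by -1.59 on average (two-sided exact permutation p = 0.133). For TRBJ2-4 tumors and spleens overlapped, both by reads (exact permutation p = 0.2) and with clonotypes counted once (exact permutation p = 0.267).

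**Figure D2:**
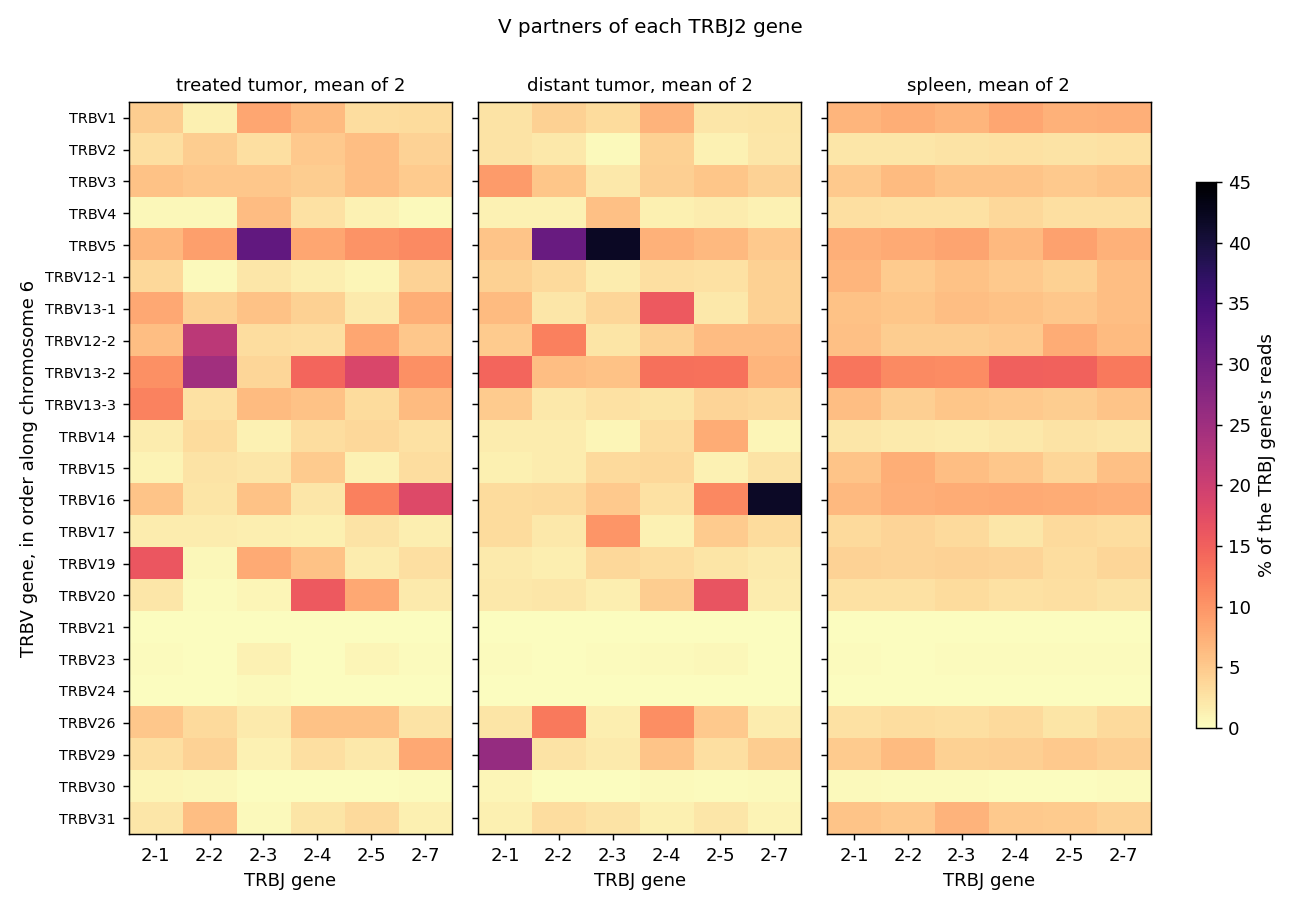
V partners of each TRBJ2 gene, as the percent of that gene's reads carried by each TRBV gene (color), averaged over the 2 libraries of treated tumors (left), distant tumors (middle) and spleens (right). TRBV genes are in their order along chromosome 6. TRBV13-2 runs as a dark band through the spleens, while TRBV5 with TRBJ2-3 and TRBV16 with TRBJ2-7 stand out in the tumors.

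TRBV5 was the leading partner of TRBJ2-3 by reads in all 4 tumors and in neither spleen. This pair and the next were picked after their values were seen. TRBV5 carried 15.7% and 47.7% of TRBJ2-3 reads in treated tumors, 39.2% and 44.6% in distant tumors, and 8.29% and 8.61% in spleens. The tumors did not overlap the spleens, and treated tumor 1 was the lowest tumor. How many of all pairs separate tumors from spleens in this way was not counted, so for a picked pair that adds no support. Among TRBJ2-3 clonotypes counted once, TRBV5 made up 12.7% and 39.4% in treated tumors, 26.4% and 24.9% in distant tumors, and 7.97% and 8.17% in spleens, so it was also higher in every tumor without weighting by reads.

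The most abundant TRBV5/TRBJ2-3 clonotype of each library held 37.0% and 49.3% of the pair's reads in treated tumors, 60.1% and 51.6% in distant tumors, and 1.68% and 1.89% in spleens. In distant tumor 1 it was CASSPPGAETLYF with 1639 reads, which had 353 reads in treated tumor 1, 1 read in treated tumor 2 and 0 in distant tumor 2 and both spleens. Tested over all pairs, the pair's log2 fold change of tumors over spleens was 2.25 (SE 0.84, edgeR adjusted p = 0.30), which did not pass, while DESeq2 gave 2.999 (SE 0.74, DESeq2 adjusted p = 0.0035). DESeq2's scaling moved the median of all pairs by 0.71 in this comparison, which its fold changes include. With edgeR, TRBV5/TRBJ2-3 was at 2.59 when the clonotype of each pair with the most reads over all 6 libraries was left out, an alternative chosen after seeing the data. It was at 1.19 without the 10 most abundant clonotypes of a library.

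TRBV16 was the leading partner of TRBJ2-7 in 3 of 4 tumors. It carried 11.5% and 24.5% of TRBJ2-7 reads in treated tumors, 42.9% and 40.7% in distant tumors, and 7.53% and 7.39% in spleens. Both distant tumors were above both treated tumors, and all tumors were above the spleens. The same limit holds for this picked pair, since pairs that separate likewise were not counted. The log2 fold change of tumors over spleens was 1.94 (SE 0.77, edgeR adjusted p = 0.32), against 2.68 (SE 0.66, DESeq2 adjusted p = 0.0035) by DESeq2. It was 1.23 without the pair's clonotype of most reads over all libraries and 0.69 without the 10 most abundant clonotypes of a library. Without treated tumor 1, edgeR called TRBV16/TRBJ2-7 at 2.16 and TRBV5/TRBJ2-3 at 2.59, and it called neither with any other library left out. Leaving out a library gave 1.61 to 2.16 for TRBV16/TRBJ2-7 and 1.58 to 2.59 for TRBV5/TRBJ2-3.

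A single clonotype made up much of this pair in treated tumor 2 and both distant tumors. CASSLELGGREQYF with TRBV16 and TRBJ2-7 was counted 0 and 2172 times in treated tumors 1 and 2, 4461 and 2494 times in distant tumors 1 and 2, and 6 and 5 times in spleens 1 and 2. It was thus found under both numbers, and its count of 0 in treated tumor 1 allows a share of up to 0.00361%. As a share of the productive reads it reached 3.87% in treated tumor 2, 5.43% in distant tumor 1 and 5.89% in distant tumor 2. Counted once, TRBV16 clonotypes made up 9.72% and 15.8% of TRBJ2-7 clonotypes in treated tumors, 25.6% and 23.9% in distant tumors, and 7.23% and 7.59% in spleens.

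**Figure D3:**
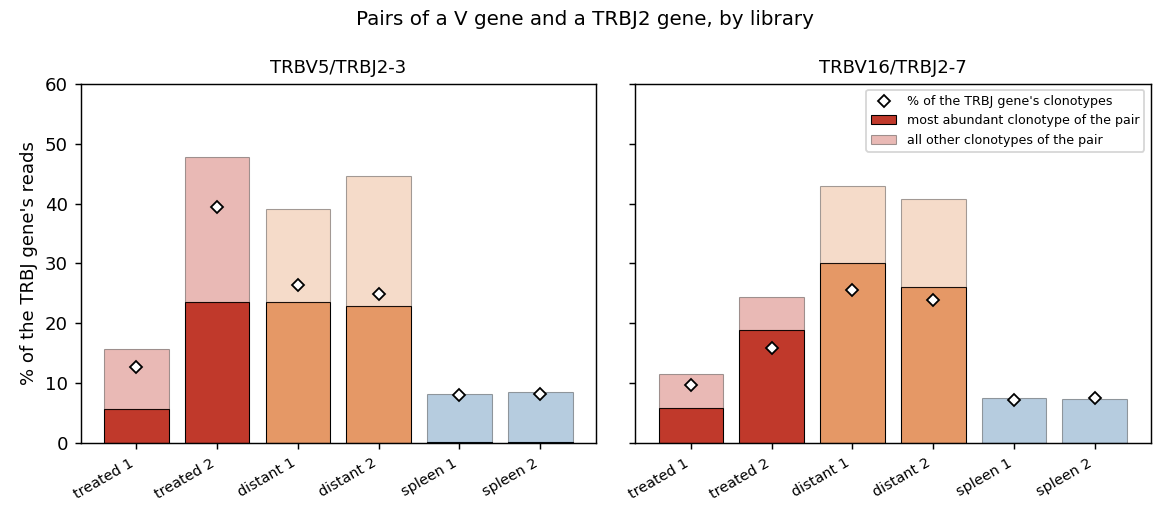
Share of TRBV5 in the reads of TRBJ2-3 (left) and of TRBV16 in the reads of TRBJ2-7 (right) in each library, in percent. Solid bars are the pair's most abundant clonotype in that library, which can differ between libraries. Pale bars are its other clonotypes, and diamonds the pair's percent of the TRBJ gene's clonotypes. TRBV5 reaches 47.7% of TRBJ2-3 reads in treated tumor 2 against at most 8.61% in a spleen, and the solid part is nearly absent in spleens.

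Over all 243 TRBV-TRBJ pairs tested, 124 of them with a TRBJ2 gene, edgeR called 0 pairs in either comparison (0% called in both). Of these, 18 had an unadjusted p under 0.05 for treated against distant tumors and 33 for tumors against spleens. DESeq2 called 17 pairs for treated against distant tumors (7% of those tested), of which 7 were TRBJ2 pairs, 3 higher and 4 lower in treated tumors. It called 13 for tumors against spleens (5.35%), of which 11 were TRBJ2 pairs, 5 higher and 6 lower in tumors. The median log2 fold change of the TRBJ2 pairs was 0.45 for treated over distant tumors and -0.50 for tumors over spleens, beside 0.22 and -0.56 over all pairs. Without treated tumor 1, edgeR called some pairs between tumors and spleens, and it called none with any other library left out.

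The 4 TRBJ2 pairs with the smallest edgeR p between treated and distant tumors were higher in treated tumors, with none passing in edgeR. DESeq2 called 3 of them, TRBV2/TRBJ2-3 (DESeq2 adjusted p = 8.3e-06), TRBV13-2/TRBJ2-2 (0.0053) and TRBV14/TRBJ2-7 (0.020). TRBV2/TRBJ2-3 took 0.416% and 0.223% of reads in treated tumors, against 0.0341% and 0.0449% in distant tumors (log2 fold change 3.02, SE 0.71, edgeR adjusted p = 0.46). The distant tumor values rest on 28 and 19 reads. Spleens had 0.213% and 0.276% for this pair, and treated tumor 2 lay between them. TRBV13-2/TRBJ2-2 took 2.03% and 0.788% of reads in treated tumors, against 0.248% and 0.248% in distant tumors (2.504, SE 0.68, edgeR adjusted p = 0.48). In spleens that pair took 0.662% and 0.535%. Without the clonotype of most reads over all libraries, the log2 fold change of TRBV13-2/TRBJ2-2 was 0.51 (SE 0.46), and without the 10 most abundant clonotypes of a library it was 1.04. Its leading clonotype in treated tumor 2 was counted 1365 and 269 times in treated tumors, 13 and 7 in distant tumors, and 2 and 5 in spleens. TRBV14/TRBJ2-7 took 0.652% and 0.430% of reads in treated tumors, against 0.173% and 0.168% in distant tumors (1.67, SE 0.56, edgeR adjusted p = 0.49). In spleens it took 0.415% and 0.445%, and treated tumor 2 lay between them. For each of these 3 pairs both spleens were thus above both distant tumors.

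TRBV19/TRBJ2-1 rested on a library. It took 2.96% and 0.450% of reads in treated tumors, 0.319% and 0.156% in distant tumors, and 0.419% and 0.454% in spleens. Without treated tumor 1 its log2 fold change of treated over distant tumors was 0.92, against 2.84 with it (SE 0.97, edgeR adjusted p = 0.49). The clonotype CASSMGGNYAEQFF alone had 1736 of its reads in treated tumor 1, with 0 in treated tumor 2 and both distant tumors, and 1 and 0 in the spleens.

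Between tumors and spleens the 4 TRBJ2 pairs with the smallest edgeR p were lower in tumors, again with none passing in edgeR. TRBV15/TRBJ2-1 took 0.138% and 0.0821% of reads in treated tumors, 0.170% and 0.154% in distant tumors, and 0.551% and 0.626% in spleens (log2 fold change -2.14, SE 0.47, edgeR adjusted p = 0.25). TRBV15/TRBJ2-5 was at 0.139% and 0.107% in treated tumors, 0.0938% and 0.118% in distant tumors, and 0.465% and 0.494% in spleens (-2.07, SE 0.48, edgeR adjusted p = 0.25). The values of each pair did not overlap between tumors and spleens. Since the pairs were picked by this same comparison, that adds no support. How many of all pairs do likewise was not counted. TRBV16/TRBJ2-4 was at -2.23 on the log2 scale (SE 0.54) and TRBV1/TRBJ2-2 at -1.91 (SE 0.48), both with an edgeR adjusted p of 0.25. TRBV16 thus gave a higher share of reads with TRBJ2-7 and a lower one with TRBJ2-4 in the same tumors. DESeq2 called these 4 pairs, with adjusted p from 0.0035 to 0.019. Of all edgeR settings, only the fit without treated tumor 1 called them, and no fit without another library did. With any library left out their log2 fold changes lay between -2.67 and -1.86.

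The pairing of V and J genes was compared with what the V and J totals of a library would give with clonotypes counted once. Of the 138 possible TRBJ2 pairs, 109 had at least 100 expected clonotypes in both spleens. Their mean log2 ratio of observed over expected ran from -0.53 to 0.44, with a median size of 0.12, and 92 of 109 lay on the same side of 0 in both spleens. The lowest was TRBV15/TRBJ2-5, with -0.48 and -0.58 in spleens 1 and 2, and the highest was TRBV15/TRBJ2-2, with 0.37 and 0.50. The same V gene thus lay below expectation with TRBJ2-5 and above it with TRBJ2-2 in the same libraries. In tumors TRBV15/TRBJ2-5 was below expectation, with -1.51 and -1.21 in treated tumors and -1.13 and -1.57 in distant tumors. TRBV15/TRBJ2-2 was below expectation in 3 of 4 tumors, with -0.61 and -0.24 in treated tumors and -0.74 and 0.15 in distant tumors. These tumor ratios rest on fewer than 100 expected clonotypes for each pair and library.

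The other extreme pairs of each gene in the spleens were milder. TRBV31, the V gene that lies behind the constant genes in inverted orientation, lay above expectation with TRBJ2-3 (0.36 and 0.36) and below it with TRBJ2-7 (-0.30 and -0.35). TRBV17 was over expectation with TRBJ2-1 (0.48 and 0.28) and with TRBJ2-5 (0.44 and 0.42). TRBV13-2, the leading partner by number, was under expectation with TRBJ2-3 (-0.35 and -0.31) and TRBJ2-2 (-0.17 and -0.28). TRBV4 with TRBJ2-4 gave 0.39 and 0.13, TRBV5 with TRBJ2-4 gave -0.28 and -0.31, TRBV2 with TRBJ2-1 gave -0.17 and -0.31, and TRBV15 with TRBJ2-7 gave 0.23 and 0.24. These ratios are a description of 2 libraries.

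Seen from the V side, TRBV17 clonotypes used the TRBJ2 cluster most often in both spleens among the 19 V genes with over 1000 clonotypes in each. Their TRBJ2 share was 87.8% and 83.3% in treated tumors, 83.7% and 83.1% in distant tumors, and 80.4% and 81.3% in spleens, where the whole cluster held 67.9% and 68.5% of clonotypes. TRBV29 had 62.8% and 63.8% in spleens and TRBV1, the V gene at the upstream end of the locus, 63.92% and 63.97%. TRBV12-1 was at 69.2% and 76.6% in treated tumors, 21.4% and 76.6% in distant tumors, and 69.7% and 70.6% in spleens. These V genes were picked after their values were seen.

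CDR3 length differed between the TRBJ2 genes within every library. Counted once, TRBJ2-7 clonotypes had the shortest CDR3 of the cluster in every library, with means of 13.3 and 13.3 residues in treated tumors, 13.4 and 13.3 in distant tumors, and 13.3 and 13.3 in spleens. TRBJ2-2 clonotypes had means of 14.9 and 14.4 residues in treated tumors, 14.9 and 14.7 in distant tumors, and 14.6 and 14.6 in spleens. Set against the other 5 TRBJ2 genes of the same library, TRBJ2-7 was shorter by 0.899 ± 0.0686 residues (mean difference -0.899, SD over 6 libraries), in 6 of 6 libraries. TRBJ2-2 was longer by 0.794 ± 0.229 residues, TRBJ2-3 by 0.557 ± 0.208, TRBJ2-1 by 0.360 ± 0.129 and TRBJ2-4 by 0.156 ± 0.126, each in 6 of 6 libraries. An exact sign-flip permutation test gave p = 0.0312 for each of these 5 genes, the smallest it allows over 6 libraries, and 0.0375 after Benjamini-Hochberg adjustment over the 6 genes. TRBJ2-5 was shorter in 4 of 6 libraries (-0.131 ± 0.126, adjusted exact permutation p = 0.125), which did not pass. Libraries of a mouse are not independent, which the test does not take into account.

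Over the whole cluster, tumors and spleens overlapped in mean CDR3 length. The mean over all TRBJ2 clonotypes was 14.0 and 14.0 residues in treated tumors, 14.0 and 13.9 in distant tumors, and 13.9 and 13.9 in spleens. Treated tumors differed from distant tumors by 0.0327 residues (exact permutation p = 0.667, two-sided, n = 2 each) and tumors from spleens by 0.0379 (two-sided exact permutation p = 0.333, 4 tumors and 2 spleens). Weighted by reads, the first difference was -0.0612. TRBJ2-5 was the gene whose mean length was lower in every tumor than in both spleens. Counted once its means were 13.87 and 13.85 residues in treated tumors, 13.78 and 13.71 in distant tumors, and 13.97 and 13.92 in spleens. The difference of tumors from spleens was -0.148 residues (two-sided exact permutation p = 0.133) and, weighted by reads, -0.272 (exact permutation p = 0.0667, the smallest possible), neither adjusted over the 6 genes.

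The genes also differed in how much of the germline J segment they kept, counted as residues that match the segment without a break from the end of the CDR3. TRBJ2-7 kept fewer residues than the other 5 genes (mean difference -0.828 ± 0.162, SD over 6 libraries), beside a germline segment that is 1 residue shorter. TRBJ2-3 kept 0.656 ± 0.0785 more, TRBJ2-2 0.480 ± 0.201 more and TRBJ2-4 0.356 ± 0.0766 more, each in 6 of 6 libraries (adjusted exact sign-flip permutation p = 0.0469 for these 4 genes). TRBJ2-1 and TRBJ2-5 did not pass. A whole germline end was present in 47.5% and 48.6% of TRBJ2-2 clonotypes in spleens, against 16.6% and 16.3% of TRBJ2-5 clonotypes, whose segment is of the same number of residues.

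Tumor clonotypes of the cluster kept fewer germline TRBJ residues than spleen clonotypes when each was counted once, and the difference was larger among clonotypes of 1 read than among those of more reads. The means were 4.72 and 4.56 in treated tumors, 4.68 and 4.79 in distant tumors, and 5.44 and 5.41 in spleens. All tumors were below both spleens, by 0.735 residues on average (difference -0.735, exact permutation p = 0.0667, the smallest possible, two-sided, n = 4 and n = 2). Among clonotypes of 1 read the difference was -0.886, among those of at least 10 reads it was -0.127 (exact permutation p = 0.133, n = 4 and n = 2), and with clonotypes weighted by reads it was -0.0640 (exact permutation p = 0.467, n = 4 and n = 2). These weightings were chosen after seeing the data.

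Counts of near-identical and incomplete sequences moved with it. A clonotype that differs at 1 residue from one with at least 10 times more reads, of the same V, J, length and library, made up 29.9% and 35.6% of TRBJ2 clonotypes in treated tumors, 26.2% and 17.7% in distant tumors, and 0.998% and 1.11% in spleens. CDR3 that do not start with cysteine and end with phenylalanine made up 11.9% and 12.4% of TRBJ2 clonotypes in treated tumors, 10.9% and 10.6% in distant tumors, and 3.03% and 3.16% in spleens, but 1.72% to 2.73% of TRBJ2 reads in any library. A CDR3 that does not end with phenylalanine counts as keeping no TRBJ residues. Such sequences thus lower the mean by construction, and their part in the difference of -0.735 was not tested. Among TRBJ2 clonotypes of at least 10 reads they made up 0.226% in treated tumor 1 and 0% in every other library. For those clonotypes the difference was -0.127. With the 1-residue variants merged, the difference in kept residues between tumors and spleens was -0.817. How the authors handled sequencing errors is not stated, and without nucleotide sequences such variants cannot be told apart from true clonotypes.

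**Figure D4:**
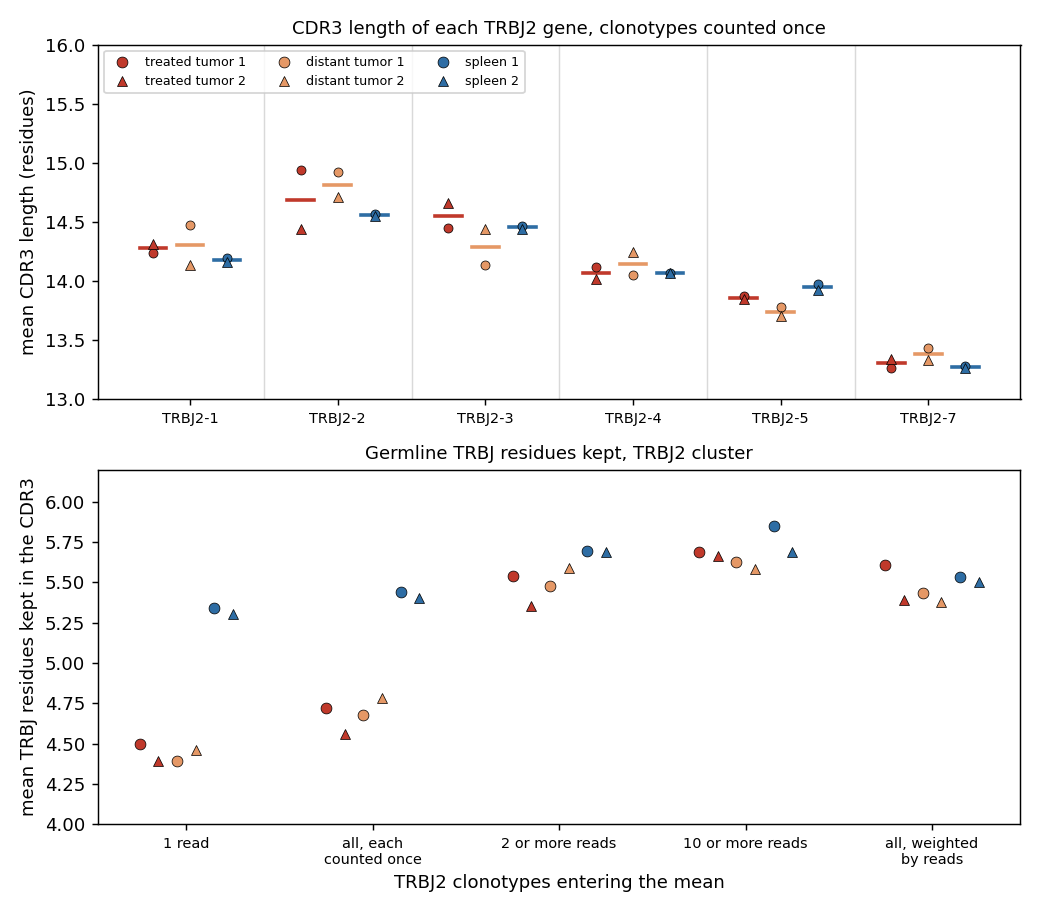
Top, mean CDR3 length in residues of each TRBJ2 gene per library, clonotypes counted once; the axis does not start at 0. Bottom, mean number of germline TRBJ residues kept in TRBJ2 CDR3, for clonotypes of 1 read, all clonotypes counted once, those of at least 2 or 10 reads, and all weighted by reads. Points are libraries as in the legend. TRBJ2-7 has the shortest mean in every library, and the gap between tumors (4.56 to 4.79) and spleens (5.41 and 5.44) is present with clonotypes counted once and small when weighted by reads.

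Residue triplets that TRBD2 can encode were more frequent beside TRBJ2 than beside TRBJ1 genes. DWG and GLG are residue triplets that frames of TRBD2 can encode, and GQG and DRG are triplets that TRBD1 can encode, though added bases can give each of them too. A DWG or GLG triplet was present in 9.21% ± 1.57 of TRBJ2 clonotypes and 0.483% ± 0.182 of TRBJ1 clonotypes (SD, n = 6 libraries), higher in 6 of 6 libraries (exact sign-flip permutation p = 0.0312, two-sided, the smallest possible). A GQG or DRG triplet was present in 4.63% ± 0.789 of TRBJ2 clonotypes and 7.03% ± 1.12 of TRBJ1 clonotypes, lower in 6 of 6 (exact sign-flip permutation p = 0.0312, two-sided). The first kind made up 8.20% and 7.50% of TRBJ2 clonotypes in treated tumors, 8.47% and 8.80% in distant tumors, and 11.5% and 10.8% in spleens. TRBJ2-7 had the highest share of any gene of the cluster in both spleens, at 12.7% and 11.9%, and TRBJ2-2 the lowest, at 8.76% and 8.03%.

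Clone size separated tumors from spleens for every TRBJ2 gene. The TRBJ1 genes are not set beside them here, so this is not shown to be particular to the cluster. Over all 12 TRBJ genes, treated tumors had 83171 and 56057 productive reads in 12761 and 7539 clonotypes. Distant tumors had 82142 and 42320 reads in 11201 and 10347 clonotypes, and spleens 96907 and 135599 reads in 64726 and 92233. Reads per TRBJ2 clonotype averaged 6.39 and 7.71 in treated tumors, 6.58 and 4.16 in distant tumors, and 1.4999 and 1.47 in spleens. Over tumors and spleens the log2 difference was 2.03, and 2.17 after drawing 42320 reads from each library (exact permutation p = 0.0667 for both, the smallest possible, two-sided, n = 4 and n = 2). Between treated and distant tumors it was 0.426 (exact permutation p = 0.667, two-sided, n = 2 each). Clonotypes with at least 0.1% of a library's reads numbered 88 and 131 in treated tumors, 37 and 65 in distant tumors, and 1 in each spleen. These held 44.3% and 64.8% of TRBJ2 reads in treated tumors, 45.1% and 40.6% in distant tumors, and 0.188% and 0.157% in spleens.

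Among the genes of a library, differences in clone size were small. TRBJ2-7 had more reads per clonotype than the other 5 genes in 6 of 6 libraries, by 0.0984 ± 0.0597 on the log2 scale (SD over 6 libraries, exact sign-flip permutation p = 0.0312, adjusted 0.188), which did not pass the adjustment. The other genes had adjusted exact permutation p of 0.281 to 0.688.

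**Figure D5:**
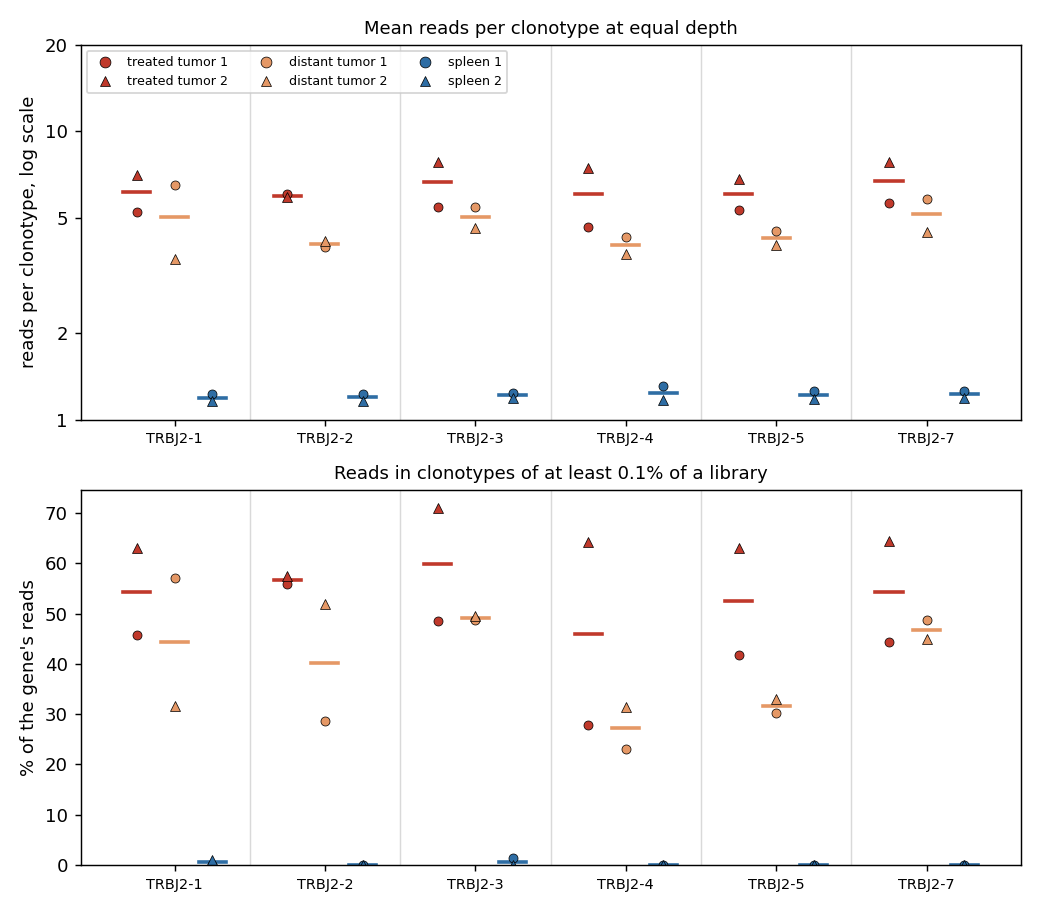
Top, mean reads per clonotype of each TRBJ2 gene after drawing 42320 reads from each library, on a log axis. Bottom, percent of each gene's reads in clonotypes with at least 0.1% of the library's productive reads. Points are libraries and short lines are means of 2. Every tumor lies above both spleens for every TRBJ2 gene, and spleens lie at or near 0% in the lower plot. TRBJ1 genes are not shown.

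Several clonotypes that led a TRBJ2 gene in a library were also found in the other tissues of the same number. A single TRBV13-2 clonotype led TRBJ2-1 in all 3 libraries of number 2, with 758 reads in treated tumor 2, 532 in distant tumor 2 and 146 in spleen 2. It had 11 reads in treated tumor 1, 0 in distant tumor 1 and 15 in spleen 1. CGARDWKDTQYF with TRBV20 led TRBJ2-5 in distant tumor 2 and spleen 2, with 105 reads in treated tumor 2, 684 in distant tumor 2, 105 in spleen 2 and 0 in each library of number 1. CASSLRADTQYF with TRBV14 led TRBJ2-5 in distant tumor 1, with 172 reads in treated tumor 1, 602 in distant tumor 1, 14 in spleen 1 and 0 in each library of number 2.

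Some leaders were found in a single library. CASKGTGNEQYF with TRBV13-1 led TRBJ2-7 in treated tumor 1 with 1272 reads and had 0 in the other 5 libraries. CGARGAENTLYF with TRBV20 led TRBJ2-4 in treated tumor 2 with 1017 reads and likewise had 0 elsewhere, which in distant tumor 2 allows a share of up to 0.00709%. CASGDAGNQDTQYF with TRBV13-2, the leader of TRBJ2-5 in treated tumor 1, was present in every library, with 1206 and 17 reads in treated tumors, 122 and 19 in distant tumors, and 20 and 32 in spleens.

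Sharing of TRBJ2 clonotypes ran along the numbers. Treated and distant tumor 1 shared 396 TRBJ2 clonotypes, which were 4.60% of those of the treated and 5.65% of those of the distant tumor and held 37.9% and 31.5% of their TRBJ2 reads. Treated and distant tumor 2 shared 283, which were 5.45% and 4.08% of clonotypes and 40.4% and 31.0% of TRBJ2 reads. Tumors of different numbers shared 81 to 154. Of the single genes, TRBJ2-7 gave the most shared clonotypes of a pair of tumors, 125 under number 1 and 115 under number 2, and it also had the most clonotypes in every tumor.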

How the data were processed

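TCR-β cDNA was amplified by adaptor-ligation PCR with constant region primers and sequenced as paired MiSeq reads, per the labels' protocols. Each of the 6 deposited tables gives TRBV, TRBJ, CDR3 amino acids, whole read counts and a percent, per the file headers. The authors' deposited counts are not normalized, and their percent values are read shares over unmarked sequences, matched here to within 0.00499 percentage points. Aligner, germline reference and error handling: not given in the sources used here. Marked sequences (4.45% to 6.62% of reads) were left out, leaving 42320 to 135599 productive reads per library.

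Reads per TRBJ gene and per TRBV-TRBJ pair were tested with edgeR 4.0.16 (quasi-likelihood test, scaling by productive reads, low-count filter, Benjamini-Hochberg adjustment over all genes or pairs) with all 6 libraries fitted as 3 groups, with DESeq2 1.42.0 and other settings as alternatives. Only the fit of pairs for treated against distant tumors was run on simulated data. Tumors against spleens sets the mean of both tumor groups against spleens. Other values were compared by exact permutation over libraries, or by sign flips within libraries, two-sided. Equal depth means 42320 reads per library, averaged over 20 draws. Germline segments come from GENCODE M21 (GRCm38).

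Named are all 6 TRBJ2 genes, the 4 TRBJ2 pairs of smallest p in each comparison, the V genes of highest share and of highest and lowest observed over expected clonotypes in spleens, and leading clonotypes, with CDR3 printed up to 14 residues. The members and lists were chosen with earlier results of these data known. No label ties a number to a mouse, and p-values then measure only the spread between libraries, which may be technical.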

Additional observations from a re-analysis of the deposited data

Results flagged for a closer look

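Distant tumor 1 stood apart from the other 3 tumors in its use of TRBJ2-5. The gene held 7.02% of productive reads there, against 11.5% to 11.7% in the other tumors, and the gap to the nearest tumor was 0.948 of the whole range, above Dixon's 95% critical value for 4 samples. Counted once, TRBJ2-5 held 9.19% of clonotypes in distant tumor 1, against 11.9% to 12.1% in the other tumors, a gap of 0.947 of the range. The same library had the low share of the whole cluster and the abundant TRBJ1-2 clonotype, and the part of that clonotype in these values was not tested. Of 35 measures examined in this way, 2 were past the critical value, which chance alone passes in about 1 of 20 groups.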

How the results depend on the processing

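With 2 libraries a group, counts of called features depended on single settings. For treated against distant tumors 1 TRBJ gene was called, against 0 with clonotypes counted once (with or without 1-residue variants merged), without the 10 most abundant clonotypes or with the replicate block, and 2 with TMM. Leaving out single libraries gave 0 to 3. For tumors against spleens 0 were called, against 2 with clonotypes counted once, 2 with variants merged, 1 without the 10 most abundant clonotypes and 0 to 2 when a library was left out. No TRBV-TRBJ pair was called by edgeR, against 17 (treated against distant tumors) and 13 (tumors against spleens) by DESeq2, and leaving out a library gave 0 and 0 to 22. The cause was not tested. TMM moved the median of all pairs by 0.70 and DESeq2 by 0.71 for tumors over spleens, and by -0.18 and -0.27 for treated over distant tumors.

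Numbers were not taken as pairs in the main tests. Deviations of TRBJ usage from group means correlated at -0.48, -0.48 and -0.13 between same-numbered libraries over 12 genes. With 2 libraries a group this is a weak check. Clonotype sharing did run along the numbers, with 396 and 283 TRBJ2 clonotypes shared by same-numbered tumors against 81 to 154 across numbers. The main tests thus treat tissues that may come from the same mouse as independent. The replicate block called 0 TRBJ genes and 0 pairs in either comparison, and with the numbers of the distant tumors crossed it also called 0. As differences within numbers the cluster share was 6.69 and -2.88 percentage points (exact sign-flip permutation p = 0.5 and 1, n = 2 pairs, where 0.5 is the smallest p possible, so this cannot show the lack of a difference).

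For tumors minus spleens the cluster share was -4.87 to 0.240 percentage points when a library was left out. Treated minus distant, mean CDR3 length was -0.0612 weighted by reads and -0.0056 to 0.0711 residues with a library left out, and kept TRBJ residues were 0.0902 weighted by reads, 0.0691 from 10 reads and 0.0170 at 1 read.

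Merging of variants and weightings by reads were chosen after seeing the data. Fold changes of TRBJ2 genes near 0 turned sign. Treated over distant tumors, without the 10 most abundant clonotypes, they were 0.211 (TRBJ2-1), -0.117 (TRBJ2-2), -0.064 (TRBJ2-5) and -0.100 (TRBJ2-7). With clonotypes counted once they were 0.001 (TRBJ2-1) and -0.037 (TRBJ2-7), with variants merged -0.029 (TRBJ2-4) and -0.006 (TRBJ2-7), and with marked sequences 0.004 (TRBJ2-1) and -0.004 (TRBJ2-7). TMM gave -0.026 (TRBJ2-4) and -0.253 (TRBJ2-7), and DESeq2 gave -0.110 (TRBJ2-7). Leaving out a library gave -0.274 to 0.313 (TRBJ2-1), -0.250 to 0.772 (TRBJ2-2), -0.110 to 0.656 (TRBJ2-4), -0.026 to 0.716 (TRBJ2-5) and -0.139 to 0.184 (TRBJ2-7). For tumors over spleens DESeq2 gave 0.011 (TRBJ2-2), and without the 10 most abundant clonotypes the values were -0.037 (TRBJ2-3) and -0.028 (TRBJ2-7). Leaving out a library gave -0.009 to 0.284 (TRBJ2-1), -0.442 to 0.045 (TRBJ2-2), -0.022 to 0.181 (TRBJ2-3) and -0.026 to 0.136 (TRBJ2-7). The 10 pairs whose fold changes are given kept their direction under the 17 alternatives run for them. Among 170 alternatives of summary values, 144 were alike, 20 gave a count of calls that was not close and 6 turned sign. A count was alike when equal or close, and a difference between groups when it kept its sign, whatever its p. A gene's difference from the other TRBJ2 genes also had to keep its side of the threshold. Among single genes and pairs, 315 of 362 alternatives kept direction and side of the threshold. In 28 the sign turned, and 19 passed in the main direction only under the alternative. The 28 include fits that passed in the opposite direction, as for TRBJ2-7 with TMM. Reads are not molecules, and the number of T cells behind a library is not known, which limits every statement on clone size.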

Other observations

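Sequences with a stop or frame mark, which entered none of the comparisons, also held mostly TRBJ2 genes. The cluster made up 69.8% and 71.8% of marked reads in treated tumors, 62.6% and 64.5% in distant tumors, and 71.2% and 70.8% in spleens. As among productive reads, distant tumor 1 had the lowest share.

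Of the TRBJ2 clonotypes of a tumor, more were also found in the spleen of the same number than in the other spleen. Treated tumor 1 shared 437 with spleen 1 and 371 with spleen 2, and treated tumor 2 shared 312 with spleen 2 and 153 with spleen 1. Distant tumor 1 shared 567 with spleen 1 and 339 with spleen 2, and distant tumor 2 shared 966 with spleen 2 and 376 with spleen 1. The clonotypes shared with the spleen of the same number held 32.4% and 43.3% of TRBJ2 reads in treated tumors, and 46.8% and 53.0% in distant tumors. The spleens differ in depth, at 96907 and 135599 productive reads, so counts for spleen 1 and spleen 2 are not on the same footing.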
